A study of Mus musculus with 8 samples.

Results

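Fatty acids reach the inside of a cell with the help of membrane receptors and transport proteins and are carried in the cytosol by small binding proteins. The data described here are the transcripts of 9 such genes in mouse liver, out of 34547 genes with values: the receptor gene Cd36, the transport protein genes Slc27a1, Slc27a2, Slc27a4 and Slc27a5, and the binding protein genes Fabp1, Fabp2, Fabp4 and Fabp5. They were chosen as genes of fatty acid uptake, transport and binding, with earlier results of these data known. All 9 had enough reads to be tested. Liver RNA came from 8 C57BL/6J mice. An adeno-associated virus (AAV, a vector that delivers a gene to the liver from the blood) carried mouse Nudt7 in 4 of them and GFP, a fluorescent protein that serves as the control, in the other 4. Nudt7 encodes a peroxisomal enzyme that cleaves coenzyme A and acyl-CoAs. Each mouse received 2.5e+11 viral particles through the tail vein at 8 weeks of age, and its liver was taken 3 to 4 weeks later, at 11 to 12 weeks, after a fast of 24 h that both groups shared. The GFP group is thus a control for the vector and not for feeding, and no fed liver and no liver without AAV was analysed here. The promoter and serotype of the vector and the sex of the mice were not given in the sources used here, and the libraries come from whole liver rather than from isolated hepatocytes.

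CD36 is a glycoprotein of the plasma membrane that binds long-chain fatty acids and helps them enter the cell. Hepatocytes of a healthy liver hold little of it, its level rises in fatty liver, and its gene is a target of the nuclear receptors PPAR alpha and PPAR gamma. The Slc27a genes encode the FATP proteins, which join uptake to the activation of fatty acids with coenzyme A. FATP2 and FATP5, encoded by Slc27a2 and Slc27a5, are the liver forms, and FATP5 also activates bile acids for conjugation. The FABPs are cytosolic carriers, named for the tissues in which they are abundant: liver for Fabp1, intestine for Fabp2, adipose tissue for Fabp4 and epidermis for Fabp5. In a fast, adipose tissue releases fatty acids to the blood, and the liver takes them up for oxidation and ketone synthesis.

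The libraries held 11187806 to 23640734 reads as estimated by Salmon, a program that assigns each read to transcripts and gives a fractional count. Nudt7 itself stood at 1301, 1599, 3569 and 1555 CPM (counts scaled to 1e+06 reads per library, with library sizes set by edgeR's TMM method) in Nudt7 livers 1 to 4 and at 60.7 to 79.9 CPM in the GFP livers, so the labels of the groups held. Nudt7 liver 3 differed from the other Nudt7 livers by transcript length. Genes in the shortest of 3 classes of length lay 0.42 log2 units above those livers and genes in the longest class lay at −0.36 (medians over genes). The binding protein genes are in the short class, Slc27a4 in the long class and the other 4 genes in the middle class. Results for these genes are therefore also given without this library where that moved them by over 1.5 times. In a bulk sample, a change in the number of cells of a type and a change in RNA per cell cannot be told apart.

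The 9 genes spanned a wide range of levels, set here by TPM (an abundance corrected for transcript length and scaled to the same sum in each library). Fabp1 was the most abundant of them, at 3745 ± 610 TPM in GFP livers and 4895 ± 655 TPM in Nudt7 livers (SD, n = 4 each), which placed it at rank 46 and rank 33 of all genes. Slc27a2 followed at 1628 ± 46.7 and 1534 ± 217 TPM, Slc27a5 at 389 ± 35.5 and 349 ± 26.3 TPM, and Fabp2 at 144 ± 22.0 and 147 ± 26.0 TPM. From Fabp1 down to the step between Fabp2 and the next gene, the ranges of neighbours in this order did not overlap in either group. Below them the order differed between the groups. In GFP livers Slc27a1 (42.9 ± 2.36 TPM), Fabp4 (31.7 ± 19.0), Slc27a4 (21.4 ± 3.90) and Cd36 (20.2 ± 2.51) had ranges that overlapped from each gene to the next. In Nudt7 livers Cd36 (42.4 ± 9.31 TPM) overlapped with Slc27a1 (62.6 ± 22.8) above it and lay wholly above Slc27a4 (22.7 ± 2.63) and Fabp4 (20.5 ± 4.96). Fabp5 was the lowest in both groups, at 3.73 ± 0.745 and 4.48 ± 1.95 TPM.

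**Figure D1:**
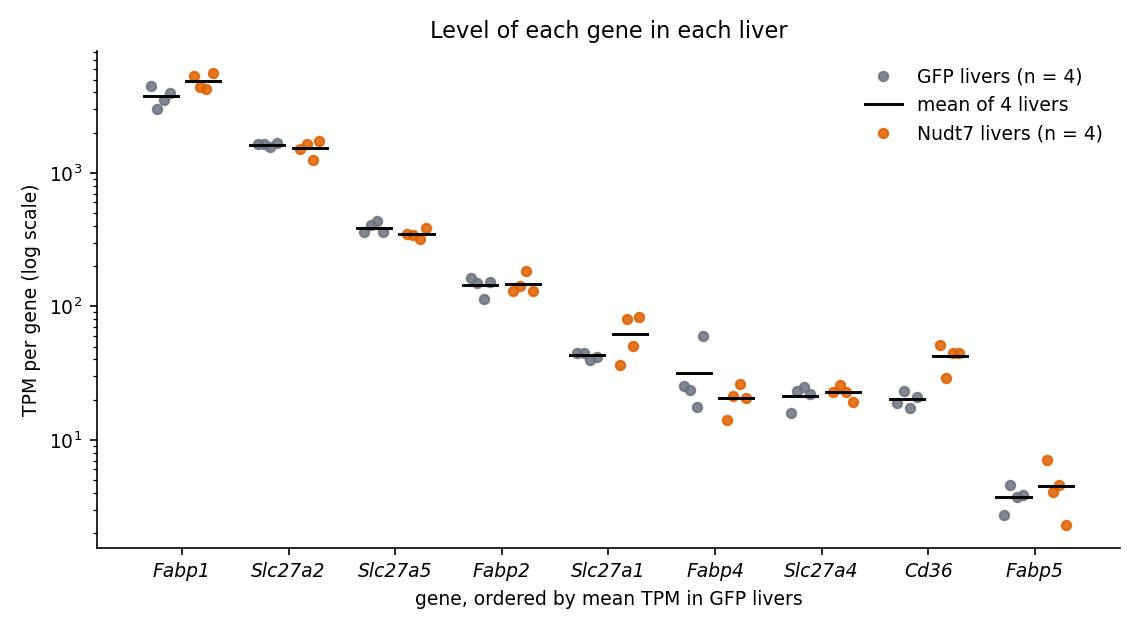
Level of each of the 9 genes in each liver, in TPM on a log axis, with genes on the horizontal axis ordered by their mean in GFP livers; points are livers and black lines the mean of 4. The 4 Nudt7 points of Cd36 lie above its 4 GFP points, and the points of the other genes overlap between the groups.

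Summed over genes, the binding proteins held more transcripts than the transport proteins. The 4 Fabp genes came to 3925 ± 626 TPM in GFP livers and 5067 ± 631 TPM in Nudt7 livers, of which Fabp1 made up 94.5% to 97.3% in single livers. The 4 Slc27a genes came to 2082 ± 21.0 and 1969 ± 256 TPM, of which Slc27a2 and Slc27a5 together made up 95.0% to 97.1%. Both sums overlapped between the groups. The transcripts of this set in fasted liver were thus mostly those of the liver forms, while Cd36 and Slc27a1 were minor members by level.

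Of the 9 genes, 1 rose in Nudt7 livers and 0 fell at an adjusted p under 0.05 (edgeR's quasi-likelihood test, Benjamini-Hochberg adjustment over 13678 genes), where 0.117% of all genes tested were called and 0.0439% were called as higher. The gene that rose was Cd36. Cd36, Slc27a1 and Fabp1 (3 genes) had an unadjusted p under 0.05, against 8.28% of all genes tested, or 4.25% counting those with a positive fold change. The 4 Nudt7 livers lay wholly above the 4 GFP livers in CPM for Cd36 and Fabp1 (2 genes, against 5.75% of all genes tested with groups apart, or 2.74% with Nudt7 above) and in TPM for Cd36 alone (5.42%). Fold changes were positive for 7 genes and negative for Slc27a5 and Fabp4, where 49.8% of all genes tested were positive. The median log2 fold change of the 9 genes was 0.25, against −0.00089 for all genes tested; without Nudt7 liver 3 it was 0.11, with 6 positive.

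**Figure D2:**
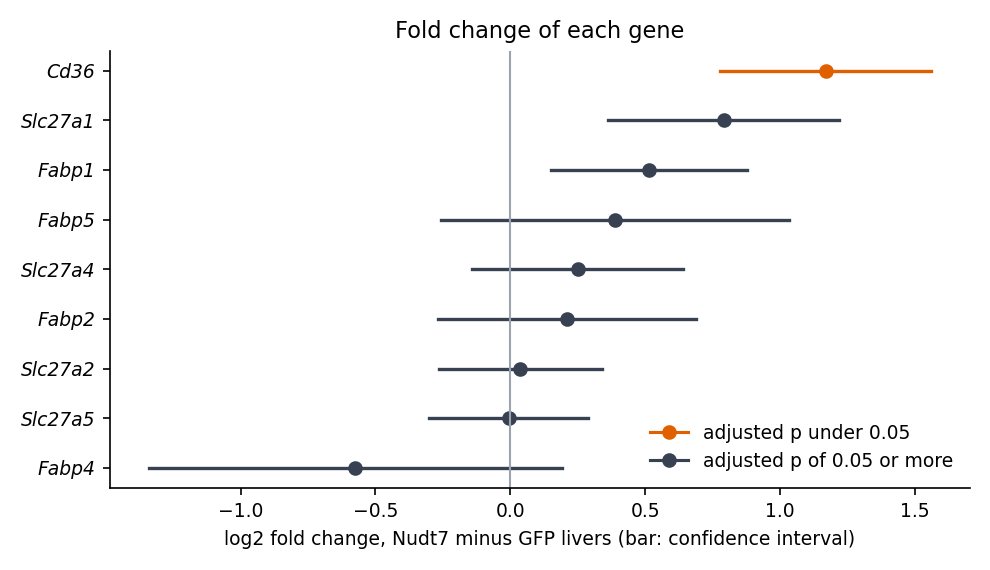
Log2 fold change of each gene, Nudt7 minus GFP livers (n = 4 each), from edgeR's quasi-likelihood fit; points are estimates and bars their 95% confidence intervals. The interval of Cd36 runs from 0.78 to 1.56, those of Slc27a1 and Fabp1 also lie above 0, and the other 6 span 0.

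Cd36 transcripts were more abundant in every Nudt7 liver than in any GFP liver. The gene (ENSMUSG00000002944.15) lies on chromosome 5 from 17781690 to 17888801 on the minus strand of GRCm38. Its level was 79.5, 46.5, 80.5 and 68.6 CPM in Nudt7 livers 1 to 4 and 28.7, 34.5, 25.6 and 33.3 CPM in GFP livers 1 to 4. Nudt7 liver 2 was the lowest of its group and still stood above GFP liver 2, the highest of the controls. The means were 68.8 ± 15.8 and 30.6 ± 4.15 CPM (SD, n = 4 each), a 2.25-fold difference with a 95% confidence interval of 1.72 to 2.95. The log2 fold change was 1.17 (SE 0.18, edgeR adjusted p = 0.0423), and 306 to 1053 reads per library stood behind it. None of the words of 31 bases in its transcripts occurs in a transcript of another gene (0 genes), so its reads are not split with a near-identical copy.

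The Cd36 call lies close to its threshold. DESeq2 gave an adjusted p of 2.61e-06, whereas limma-voom gave 0.0564, an offset for effective transcript length 0.0589 and limma on log2(TPM + 0.5) 0.107. With 1 library left out, the call held without Nudt7 liver 2 (adjusted p = 0.0106) and was lost without any of the other 7, at adjusted p values of 0.0578 (without Nudt7 liver 3) to 0.161 (without GFP liver 1) and log2 fold changes of 1.10 to 1.24. The size of the difference thus moved little while the adjusted p moved across 0.05.

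Against the other genes, Cd36 changed its place by level. Its TPM was 42.6% to 51.7% of that of Slc27a1 in GFP livers and 36.5% to 140% in Nudt7 livers, where Nudt7 liver 1 was the highest. It was 70.5% to 120% of Slc27a4 in GFP livers and 114% to 232% in Nudt7 livers. Against Slc27a2, the main transport protein gene, it was 1.12% to 1.42% in GFP livers and 1.77% to 3.59% in Nudt7 livers, with no overlap. Even in Nudt7 livers, Cd36 thus remained a small part of the transcripts for fatty acid uptake.

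The genome annotation gives Cd36 several starts of transcription, and sequence upstream of a start is where nuclear receptors of the PPAR family bind many of their targets. RefSeq promoter sequence was at hand for 6 of the 9 genes (GRCm38.p6, 250 bases upstream of the RefSeq start). The promoters of Cd36 and Fabp1 are shown because these are the genes whose groups were apart in CPM. Both are 5′ to 3′ on the strand of the gene: that of Cd36 is chr5:17835897-17836146 on the minus strand and that of Fabp1 is chr6:71199629-71199878 on the plus strand. Capitals mark, on either strand, the word AGGTCA, the core of many nuclear receptor sites, and the longer motif AGGNCANAGGNCA, a direct repeat of such words with a single base between them, as PPAR and its partner RXR bind it.
Cd36 promoter: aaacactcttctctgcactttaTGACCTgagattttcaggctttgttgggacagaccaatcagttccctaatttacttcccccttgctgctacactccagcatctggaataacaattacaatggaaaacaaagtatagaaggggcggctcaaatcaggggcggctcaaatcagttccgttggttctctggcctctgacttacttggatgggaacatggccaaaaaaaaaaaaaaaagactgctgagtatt
Fabp1 promoter: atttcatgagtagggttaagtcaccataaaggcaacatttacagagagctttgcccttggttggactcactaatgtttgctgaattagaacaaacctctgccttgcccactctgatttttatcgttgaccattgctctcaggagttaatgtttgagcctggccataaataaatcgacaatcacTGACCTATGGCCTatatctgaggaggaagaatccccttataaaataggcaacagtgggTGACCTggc
The Fabp1 sequence holds 1 match to the repeat, on the minus strand at position −67 relative to the start (TGACCTATGGCCT as read on the gene's strand), which overlaps 1 of its 2 AGGTCA words; the other lies at −9. The Cd36 sequence holds 0 matches to the repeat and 1 AGGTCA word, at position −228 relative to the start. Searched on both strands, the repeat occurs in 0.338% of 32851 promoters of this length and AGGTCA in 14.0%. The promoters of Slc27a1 (3 starts), Slc27a4 and Fabp2 held neither motif, and that of Slc27a2 held 1 AGGTCA word. These windows lie before RefSeq starts, which need not be the GENCODE starts of the transcripts measured. The RefSeq start of Fabp1 lies 52 bases downstream of its GENCODE start, so the word at −9 falls inside the transcript. The Slc27a2 window lies inside the first exon of its most abundant transcript, ENSMUST00000061491.13. A match of letters does not show that a factor binds there, and the Cd36 sequence belongs to only 1 of its starts, the most downstream, as described next.

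GENCODE M21 lists 6 Cd36 transcripts, which begin at 3 places. The first start is at 17888801, the middle start at 17849792, or 39.0 kb downstream along the gene, and the last start at 17835717, 53.1 kb downstream of the first. The RefSeq start of the promoter shown lies 179 bases upstream of the nearest GENCODE start, in the last group. Of the 6 transcripts, 5 hold the whole coding part, which is identical in them (1416 bases, 472 codons before the stop), and 1 is incomplete. They therefore encode a single protein and differ in the exons before the coding part and in where the last exon ends. Transcripts whose starts lie within 500 bases of each other were summed into start-site groups, 3 for Cd36, and the same was done for every gene.

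**Figure D3:**
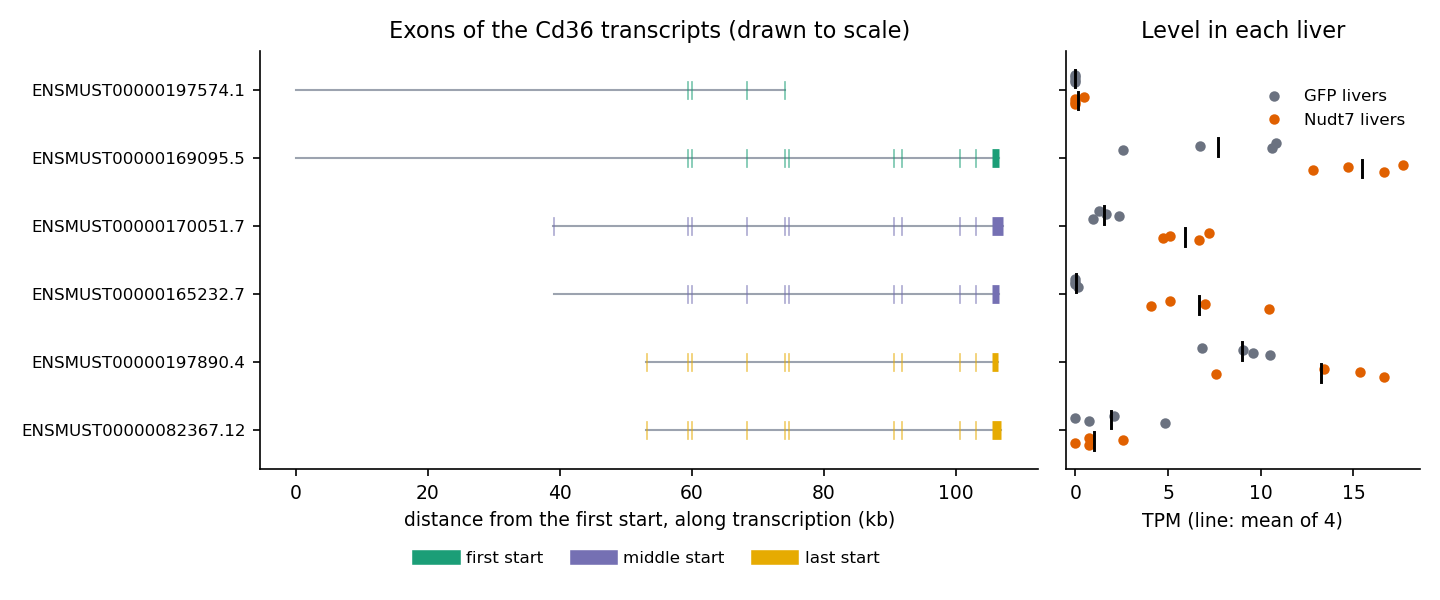
Left, exons (blocks) of the 6 Cd36 transcripts drawn to scale against distance in kb from the first start, coloured by start-site group (the shortest exons, among them some first exons, are too narrow to show at this scale); right, TPM of each transcript in each liver, with the mean of 4 as a line. Both transcripts of the middle start lie higher in all Nudt7 livers than in all GFP livers, and ENSMUST00000165232.7 is at or near 0 in the GFP livers.

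The middle start held the largest part of the Cd36 difference. Its transcripts summed to 17.1, 8.85, 12.1 and 12.3 TPM in Nudt7 livers 1 to 4 and to 1.12, 2.34, 1.63 and 1.26 TPM in GFP livers 1 to 4. Every Nudt7 liver was thus well above every GFP liver, with means of 12.6 ± 3.40 and 1.59 ± 0.546 TPM (SD, n = 4 each). In edgeR on the reads of all start-site groups it rose by a log2 fold change of 2.95 (SE 0.27), or 7.70-fold with a 95% interval of 5.08 to 11.7 (adjusted p = 0.00729). Of the 20744 start-site groups tested, 0.0145% passed. This test was added after the values of the Cd36 transcripts had been seen, and it was lost without GFP liver 3 (log2 fold change 2.96, adjusted p = 0.0654) or GFP liver 4 (2.88, adjusted p = 0.107). It held without any of the other 6 libraries, Nudt7 liver 3 among them (2.91, adjusted p = 0.0273). Reads behind the middle start numbered 367, 176, 284 and 326 in Nudt7 livers and 29.4, 59.2, 36.1 and 57.2 in GFP livers.

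The first start was also higher in Nudt7 livers by its values, without passing the test. It stood at 16.6, 12.8, 14.7 and 18.2 TPM in Nudt7 livers 1 to 4 and at 2.56, 10.6, 6.73 and 10.8 TPM in GFP livers 1 to 4, so the groups did not overlap, and GFP liver 1 was far below the other controls. The log2 fold change was 1.09 (SE 0.38, 95% interval 0.24 to 1.95, edgeR unadjusted p = 0.0177 and adjusted p = 0.693), and 0.80 without GFP liver 1; 6.13% of all start-site groups had an unadjusted p under 0.05. The last start stood at 17.4, 7.59, 17.9 and 14.1 TPM in Nudt7 livers and at 15.3, 10.3, 9.06 and 8.90 TPM in GFP livers, which overlap. Its log2 fold change was 0.50 (SE 0.31, 95% interval −0.19 to 1.19, edgeR adjusted p = 0.852), and 0.28 without Nudt7 liver 3. Of the difference of 22.3 TPM between the group means of the gene, the middle start made up 11.0 TPM (49.4%), the first 7.90 TPM (35.5%) and the last 3.37 TPM (15.1%).

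**Figure D4:**
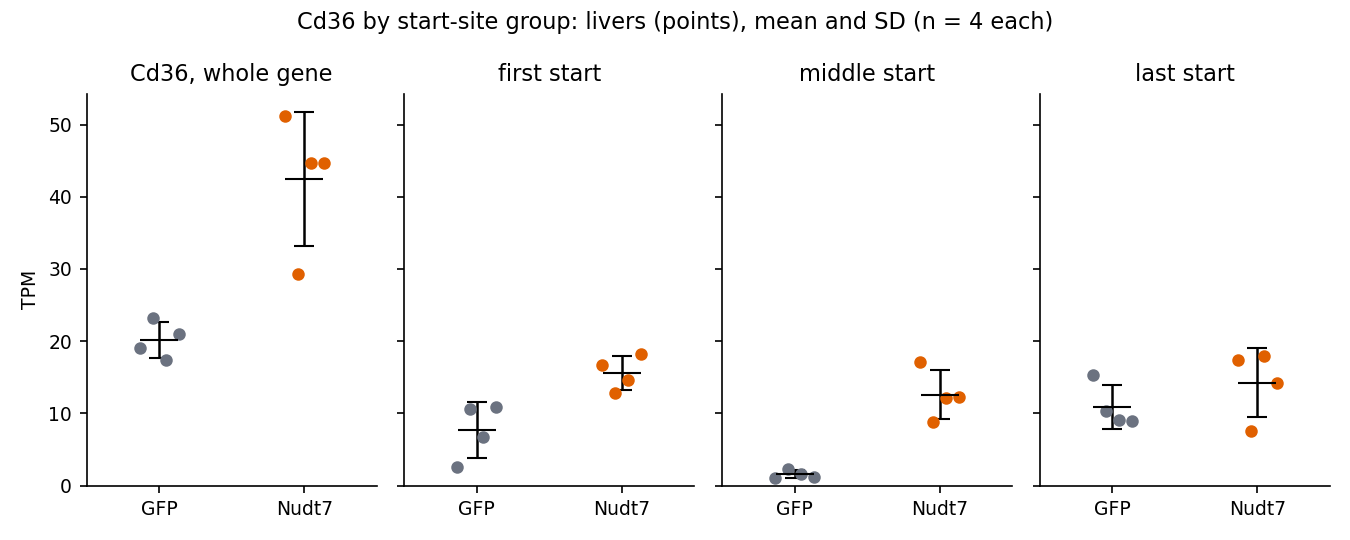
TPM of Cd36 as a whole and of its first, middle and last start in each liver; points are livers, horizontal marks the mean and bars the SD (n = 4 each). The middle start goes from 1.59 ± 0.546 TPM in GFP livers to 12.6 ± 3.40 TPM in Nudt7 livers, whereas the points of the last start overlap.

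As shares of the Cd36 TPM, the middle and last starts were apart between the groups, and the first start was not. The middle start took 33.4%, 30.2%, 27.1% and 27.6% of the Cd36 TPM in Nudt7 livers 1 to 4 and 5.89%, 10.1%, 9.36% and 6.00% in GFP livers 1 to 4. The last start took 34.1%, 25.9%, 40.1% and 31.7% in Nudt7 livers and 80.7%, 44.3%, 52.0% and 42.4% in GFP livers. So the share of the middle start was higher, and that of the last start lower, in each Nudt7 liver than in each GFP liver, by 21.8 and −21.9 percentage points in the means. Without GFP liver 1, which had the highest share of the last start, these were 21.1 and −13.3 points. The share of the first start was 37.5% ± 5.68 and 37.3% ± 16.8 (SD, n = 4 each), a range that GFP liver 1, at 13.4%, made wide. These 2 shares, like those of both transcripts of the middle start, each had p = 0.0286 in a two-sided exact permutation test, the smallest p that 70 splits of 4 against 4 livers can give. Over the 8 shares tested (5 transcripts and 3 starts) the adjusted p was 0.0571 for these 4, so 0 of 8 passed 0.05. Because 0.0286 is the smallest possible p, no share could pass this adjustment alone, however far apart its groups. In edgeR's diffSpliceDGE, which tests each start-site group against its gene as a whole, the middle start had a log2 difference of 1.75 (unadjusted p = 0.000288) that did not pass over all genes (adjusted p = 0.417). Of the 11571 groups tested in this way 0.00864% passed and 1.75% had an unadjusted p under 0.05. A shift in the use of the starts within Cd36 was thus not shown at 0.05 by either test.

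**Figure D5:**
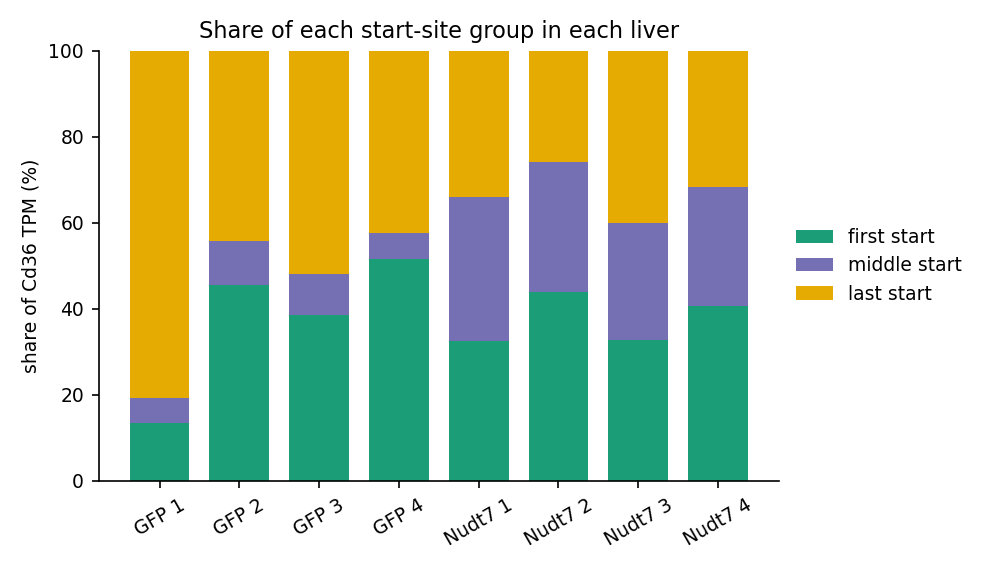
Share of the Cd36 TPM, in percent, held by the first, middle and last start in each of the 8 livers (stacked bars that add up to 100). The middle share is 5.89% to 10.1% in the GFP livers and 27.1% to 33.4% in the Nudt7 livers.

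Transcript by transcript, the middle start had 2 members. ENSMUST00000170051.7 (3399 bases) stood at 6.68, 4.74, 5.10 and 7.21 TPM in Nudt7 livers and at 0.973, 2.34, 1.63 and 1.26 TPM in GFP livers, with a log2 fold change of 2.03 (SE 0.29, edgeR adjusted p = 0.188). ENSMUST00000165232.7 (2708 bases) stood at 10.4, 4.10, 7.02 and 5.12 TPM in Nudt7 livers and at 0.147, 1.03e-05, 0 and 0 TPM in GFP livers. Its reads summed to 549 over the Nudt7 livers and 3.18 over the GFP livers. Its edgeR adjusted p was 0.0802, and no fold is given against so few reads. With no filter on low counts it passed (edgeR adjusted p = 0.0134), as it did with limma on log2(TPM + 0.5) (adjusted p = 0.00451). The single complete transcript of the first start, ENSMUST00000169095.5, went from 7.68 ± 3.90 to 15.5 ± 2.16 TPM (log2 fold change 1.09, edgeR adjusted p = 0.990). Of the last start, ENSMUST00000197890.4 was at 8.99 ± 1.57 and 13.2 ± 4.00 TPM and ENSMUST00000082367.12 at 1.91 ± 2.12 and 1.02 ± 1.10 TPM in GFP and Nudt7 livers. Of 31071 transcripts tested 0.00644% passed, and none of those of Cd36 (0 of 5) did, while 4 of the 5 had an unadjusted p under 0.05 (4.51% of all transcripts).

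How firmly reads can be given to a start depends on the sequence that only its transcripts hold. That sequence is 91 bases for the first start, 462 for the middle and 46 for the last. Of the 462 bases, 136 lie before the coding part and 326 at the 3′ end, in the longer last exon of ENSMUST00000170051.7 alone. ENSMUST00000165232.7 has 0 bases of its own and is told from other transcripts by 30 words of 31 bases across a junction, and ENSMUST00000082367.12 by 0. The files give no uncertainty of the assignment, so the values by start rest on few reads' positions, and the fold at the gene level does not depend on them.

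Slc27a1, the transport protein gene known best from muscle and adipose tissue, was higher in 3 of the 4 Nudt7 livers. It lies on chromosome 8 (71568882 to 71587302, plus strand). Its level was 53.96, 108, 96.4 and 101 CPM in Nudt7 livers 1 to 4 and 54.3, 53.2, 44.3 and 55.8 CPM in GFP livers 1 to 4. Nudt7 liver 1 lay within the GFP range and the others far above it. The log2 fold change was 0.79 (SE 0.20, 95% interval 0.36 to 1.22, unadjusted p = 0.00175, edgeR adjusted p = 0.209). DESeq2 called it (0.80, adjusted p = 0.0205, with 1.12% of all genes called), and without Nudt7 liver 1 it was 0.99 (edgeR adjusted p = 0.0531). On the log2(TPM + 0.5) scale the difference was 0.46. The level in TPM was 36.4, 80.1, 50.6 and 83.1 in Nudt7 livers and 44.6, 44.9, 40.0 and 41.9 in GFP livers. By start site, the most upstream of its 4 groups was the most abundant: 21.5, 44.8, 27.4 and 44.1 TPM in Nudt7 livers against 20.0 to 22.3 TPM in GFP livers (log2 fold change 0.90, SE 0.21, edgeR adjusted p = 0.344). The transcript ENSMUST00000212889.1 of this group, at 23.3 ± 7.34 and 12.9 ± 1.39 TPM, was apart between the groups without passing (edgeR adjusted p = 0.583). Of the words of 31 bases in Slc27a1 transcripts 2.78% occur in other genes, none sharing more than 0.911%.

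The liver transport protein genes differed by less than their spread. Slc27a2 (FATP2, chromosome 2, 126552407 to 126588243, plus strand) was at 2695 ± 234 CPM with Nudt7 and 2628 ± 195 CPM with GFP (SD, n = 4 each), with a log2 fold change of 0.04 and a 95% interval of −0.26 to 0.34 (edgeR adjusted p = 0.954). Slc27a5 (FATP5, chromosome 7, 12988346 to 12998192, minus strand) was at 559 ± 76.6 and 561 ± 36.6 CPM, with a log2 fold change of −0.01 and an interval of −0.30 to 0.29 (edgeR adjusted p = 0.993). These intervals leave room for changes of up to about 0.3 log2 units in either direction and not for a change of the size seen in Cd36. Without Nudt7 liver 3 the log2 fold change of Slc27a5 was −0.09. Slc27a4 (FATP4, the broadly expressed form, chromosome 2, 29802634 to 29817522, plus strand) was at 63.5, 70.3, 89.0 and 52.6 CPM in Nudt7 livers and 43.5, 60.8, 60.2 and 67.0 CPM in GFP livers. Its log2 fold change was 0.25 (95% interval −0.14 to 0.64, edgeR adjusted p = 0.713), and its groups overlapped. That value was 0.11 without Nudt7 liver 3, 0.15 without GFP liver 1 and 0.09 on the log2(TPM + 0.5) scale.

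Fabp1, the main cytosolic fatty acid carrier of hepatocytes, lay higher in Nudt7 livers by a smaller amount that did not pass the test. It lies on chromosome 6 (71199827 to 71205023, plus strand), with 1 transcript of 553 bases. Its level was 1466, 1224, 1589 and 1704 CPM in Nudt7 livers 1 to 4 and 1222, 833, 969 and 1162 CPM in GFP livers 1 to 4. The lowest Nudt7 liver and the highest GFP liver nearly touched. The log2 fold change was 0.51 (SE 0.17, 95% interval 0.15 to 0.88, unadjusted p = 0.00962, edgeR adjusted p = 0.425). In TPM the groups overlapped, at 5344, 4411, 4260 and 5565 in Nudt7 livers and 4459, 3030, 3530 and 3961 in GFP livers. Fabp1 is in the short class of transcript length: with the trend of length between libraries removed the log2 fold change was 0.33 (edgeR adjusted p = 0.659), and without Nudt7 liver 3 it was 0.50 (edgeR adjusted p = 0.340). The promoter with the repeat motif shown above is that of Fabp1.

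The other binding protein genes had groups that overlapped, with single livers far from the rest in Fabp2 and Fabp4. Fabp2 (chromosome 3, 122895072 to 122899506, plus strand) was at 79.6, 89.4, 157 and 82.6 CPM in Nudt7 livers and 98.4, 89.0, 67.6 and 97.6 CPM in GFP livers, with a log2 fold change of 0.21 (95% interval −0.27 to 0.69, edgeR adjusted p = 0.793). Without Nudt7 liver 3 the log2 fold change of Fabp2 was −0.06, with the trend of transcript length removed 0.02, without GFP liver 3 0.12 and without Nudt7 liver 1 0.33. Fabp4 (chromosome 3, 10204088 to 10208576, minus strand) was at 7.26, 11.0, 14.7 and 10.2 CPM in Nudt7 livers and 12.4, 12.3, 9.03 and 29.7 CPM in GFP livers, with a log2 fold change of −0.58 (95% interval −1.34 to 0.19, edgeR adjusted p = 0.677). GFP liver 4 set that value, and without it the log2 fold change was −0.05. Fabp5 (chromosome 3, 10012548 to 10016607, plus strand) was at 1.82 to 5.23 CPM in Nudt7 livers and 2.42 to 3.58 CPM in GFP livers, from 28.3 to 66.5 reads per library, with a log2 fold change of 0.39 (95% interval −0.26 to 1.03, edgeR adjusted p = 0.720). Without Nudt7 liver 1 it was 0.21 and without Nudt7 liver 4 it was 0.63 (edgeR unadjusted p = 0.0163, adjusted p = 0.470). The value of Fabp5 is uncertain, because 9.16% of the words of 31 bases in its transcripts occur in other genes, most of them in Gm6166 (7.24%), which was listed at 0 TPM in all libraries. Fabp4 and Fabp5 lie in the same region of chromosome 3, and their fold changes had opposite signs.

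The genes whose levels ran most like those of Cd36 over the 8 libraries were Gstm2, Car2, Ces1g, Spp1 and Aldh1a7. Likeness was the root mean square difference of log2 CPM after each gene's mean was taken off, over 9670 genes with a mean of at least 5 CPM. For these 5 genes it was 0.28 to 0.31 log2 units, against a median of 0.66 over all genes compared. Their log2 fold changes were 0.71 to 1.13, and none of the 5 passed the test (edgeR adjusted p = 0.105 to 0.274). For Slc27a1 the nearest genes were Alas1 (0.24), Vps37b (0.25) and Ces1e (0.26), for Fabp1 they were Rmdn2 (0.12), Ptma and Svip (0.13 each), and for Fabp4 Apoa4 (0.23), Gm8893 and Pgm2 (0.25 each). The nearest genes of Fabp5 were C6 (0.16), Marco (0.21) and Cyp7b1 (0.21). No other of the 9 genes was among the nearest genes of any of them. The measure describes these 8 libraries, and genes that share the group difference or Nudt7 liver 3 come out as alike.

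Among the other genes of fatty acid uptake, release and binding, 0 were called. Of 33 such genes 24 were tested and 0 passed in edgeR or DESeq2, with 17 positive fold changes (against 49.8% of all genes tested) and a median of 0.07 log2 units, and 2 had an unadjusted p under 0.05 (against 8.28%). On the log2(TPM + 0.5) scale, on which the median of all genes is −0.11, 9 of the 24 were positive. Vldlr, a receptor for triglyceride-rich lipoproteins, had the largest difference, at 2.44 ± 1.29 CPM with Nudt7 and 5.22 ± 1.82 CPM with GFP (log2 fold change −1.09, SE 0.36, edgeR adjusted p = 0.439). Lpl, the lipase that releases fatty acids from lipoproteins, was at 0.36 (SE 0.17, adjusted p = 0.600) and the acyl-CoA binding protein gene Dbi at 0.71 (SE 0.33, adjusted p = 0.600). Dbi stood at 238, 232, 695 and 257 CPM in Nudt7 livers 1 to 4 and at 184 to 260 CPM in GFP livers. Only Nudt7 liver 3 lay outside the GFP range. Got2, whose protein also binds fatty acids at the plasma membrane, was at 0.17 (SE 0.13), the lipase inhibitor gene Angptl4 at −0.19 (SE 0.15) and the caveolin gene Cav1 at −0.09 (SE 0.27). The remaining genes of the Slc27a and Fabp families, Slc27a3, Slc27a6, Fabp3, Fabp6, Fabp9 and Fabp12, were under 1 CPM, except Fabp7 at 2.53 ± 1.95 and 2.33 ± 0.400 CPM. So of the genes of both families named here, only the members described above and Fabp7 had group means over 1 CPM. In TPM, Fabp7 was at 5.61 ± 3.40 in Nudt7 livers and 6.02 ± 1.09 in GFP livers. These means lie above those of Fabp5, at 4.48 and 3.73 TPM.

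Among 18 genes whose proteins modify, move or partner with CD36, 0 passed in edgeR, 1 had an unadjusted p under 0.05 and 1 passed in DESeq2, beside 8.28% and 1.12% of all genes tested. That gene was Cd81, a membrane scaffold protein gene, at 148 ± 15.3 CPM with Nudt7 and 110 ± 4.97 CPM with GFP (log2 fold change 0.42, SE 0.12, edgeR adjusted p = 0.304). Positive fold changes were found for 14 of the 18 (against 49.8% of all genes tested), and for 7 on the log2(TPM + 0.5) scale. Groups were apart in CPM for 2, Cd81 among them (against 5.75%). The 18 genes summed to 914 to 931 CPM in Nudt7 livers and 807 to 885 CPM in GFP livers. Zdhhc4 and Zdhhc5, whose enzymes palmitoylate CD36, were at 0.39 and 0.09 log2 units, the kinase gene Yes1 at −0.23 and Thbs1, the gene of a CD36 ligand, at −0.30. Of 23 nuclear receptors and other regulators of these genes 0 passed in edgeR, 1 had an unadjusted p under 0.05 with a positive and 3 with a negative fold change, and 1 passed in DESeq2, against the same shares of all genes. Ppara was at 174 ± 20.2 and 186 ± 31.5 CPM (log2 fold change −0.10, SE 0.15) and Pparg at 6.41 ± 1.33 and 5.11 ± 1.42 CPM (0.32, SE 0.24) in Nudt7 and GFP livers. Those with the smallest adjusted p in edgeR were Srebf1 (0.75, SE 0.15, adjusted p = 0.109), Hnf4a (−0.43, SE 0.14, adjusted p = 0.422), Rxrb (−0.41, SE 0.14, adjusted p = 0.460) and Ppargc1a (−0.75, SE 0.32, adjusted p = 0.581). Of the 23, 2 had groups apart in CPM, against 5.75% of all genes tested: Srebf1 with Nudt7 above and Hnf4a with GFP above. Of 14 fat storage genes that are often raised with Cd36 in fatty liver 12 were tested, and 0 passed in edgeR. Fold changes were positive for 9 (against 49.8% of all genes tested), and 2 had groups apart (against 5.75%). An edgeR unadjusted p under 0.05 was found for 1 positive and 1 negative (against 8.28%). In DESeq2 1 passed (against 1.12%). With no filter or the length trend removed in edgeR, and in limma-voom with sample weights, 1 passed. These settings called 27, 34 and 100 of all genes. Scd1 was at 1.14 (SE 0.23, edgeR adjusted p = 0.113) and Plin2 at 0.36 (SE 0.25, edgeR adjusted p = 0.708). Transcript levels say nothing of the activity of these regulators or of the amount of CD36 protein.

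Cd36 is also expressed by endothelial cells, macrophages, platelets and adipocytes, and Fabp4 and Fabp5 by endothelial cells and macrophages, so marker genes of these cells were summed. Of 10 hepatocyte markers 9 had values, and their sum was 76125 to 106070 CPM in Nudt7 livers and 88859 to 107150 CPM in GFP livers. The 12 endothelial markers summed to 653 to 773 CPM in Nudt7 livers and 792 to 823 CPM in GFP livers, which is lower in each Nudt7 liver. Of the 12, 4 had positive fold changes (against 49.8% of all genes tested) and 0 were called (against 0.117%). An edgeR unadjusted p under 0.05 was found for 3 (against 8.28%), all lower with Nudt7. Stab1 and Flt4 (2 markers, against 5.75%) were apart with GFP above. The 13 macrophage markers summed to 186 to 410 and 207 to 320 CPM, which overlap. The 8 adipocyte markers summed to 28.8 to 34.5 and 26.6 to 34.8 CPM, a sum led by Lipe, with Lep at 0 in all libraries and Adipoq and Retn under 1 CPM. In GFP liver 4, where Fabp4 was highest, Cfd was at 3.35 CPM against 0 to 0.741 CPM in the other 7 livers, and Adipoq at 0.522 against 0 to 0.156 CPM. In the same liver Lipe and the sum of the 8 adipocyte markers were at their lowest. The 7 platelet markers summed to 5.47 to 6.67 and 6.35 to 9.53 CPM, with Pf4 and Ppbp under 1 CPM. Enterocytes, the main site of Fabp2, left no clear trace: their 7 markers, all under 1 CPM, summed to 0.165 to 0.521 and 0.138 to 0.335 CPM. The 9 muscle markers, all under 1 CPM, summed to 0.329 to 1.37 and 0.695 to 1.25 CPM. The 6 cholangiocyte markers summed to 31.8 to 42.5 CPM in Nudt7 livers and 17.4 to 29.4 CPM in GFP livers, a sum higher in each Nudt7 liver. Of the 5 tested, 4 had positive fold changes (against 49.8% of all genes tested) and 0 were called in edgeR (against 0.117%). Higher with Nudt7 at an edgeR unadjusted p under 0.05 were 2 of them (against 8.28%), and 1 passed in DESeq2 (against 1.12%). Only Spp1 had groups apart (1 marker, against 5.75%), at 14.9 ± 4.52 and 6.86 ± 1.33 CPM with Nudt7 and GFP. It is also among the nearest genes of Cd36 given above. The 7 red cell markers summed to 304 to 1816 and 412 to 600 CPM, highest in Nudt7 liver 3. The part of these cells in the levels of Cd36, Fabp4 and Fabp5 was not tested.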

How the data were processed

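FastQC, Salmon, DESeq2 and build GRCm38 are named by the submitters' processing notes; the sources used here do not state Salmon's version, index or options. The deposited files, 1 per liver, give for each transcript an estimated count (not normalized), a TPM and an effective length, per the file headers. Of 109282 transcripts, 107987 (98.8%) were named by Ensembl identifier from GENCODE M21; the rest, 0.552% to 1.06% of reads, stayed out. Gene and start-site sums of the deposited estimated counts were rounded to whole numbers, as were single transcripts. TPM was summed per gene and start-site group.

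The test was the two-sided quasi-likelihood test of edgeR 4.0.16 (robust fit, TMM, filterByExpr, 13678 genes), Nudt7 against GFP with no covariate, Benjamini-Hochberg over all features tested, threshold 0.05. Alternatives used DESeq2 1.42.0, limma 3.58.1, other scalings, no filter, length offsets, TPM with a pseudocount of 0.5 and each library left out. The gene and start-site tests were tested on simulated data. Likeness used genes of at least 5 CPM. The nearest 5 genes of Cd36 and 3 of each other gene were kept, and up to 4 genes per pathway list were named by adjusted p, with Lpl, Got2, Angptl4, Cav1, Ppara and Pparg whatever their result. Zdhhc5 and Fabp7 were added after their values were seen. The value of 1 listed gene is not reported here. The members and the 15 gene lists were chosen with earlier results of these data known. The livers are separate mice per the labels, which give no litter, batch or sex. Strand-specific counting is not stated; the antisense neighbours of Fabp2 and Slc27a2 had no transcript in the files.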

Additional observations from a re-analysis of the deposited data

Results flagged for a closer look

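Of 24 groups of 4 livers checked for a single far value (the 9 genes and the Cd36 start-site groups), 2 held one; chance gives about 1 in 20. Fabp2 in Nudt7 liver 3 was at 157 CPM, against 79.6 to 89.4 CPM in the other Nudt7 livers, a gap of 0.874 of the group's range. This is the library in which genes in the short class of transcript length were high, by 0.42 log2 units in the median, and Fabp2 is in that class. Of the other binding protein genes, also in that class, Fabp1 (1589 CPM) and Fabp5 (4.36 CPM) lay there within the range of the other Nudt7 livers. Fabp4 (14.7 CPM) lay above that range. The log2 fold change of Fabp2 between the groups was 0.21, and 0.02 with the trend of length removed. The part of transcript length in the value of Fabp2 was not tested. Fabp4 in GFP liver 4 was at 29.7 CPM, against 9.03 to 12.4 CPM in the other GFP livers, a gap of 0.837 of the range. In that liver the adipocyte markers Cfd (3.35 CPM, others 0 to 0.741) and Adipoq (0.522 CPM, others 0 to 0.156) were also at their highest, while Lipe was at its lowest (17.6 CPM, others 21.9 to 29.6). The macrophage markers summed to 207 CPM there, the lowest of the GFP livers. The part of other cells in the value of Fabp4 was not tested.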

How the results depend on the processing

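Of 153 refits of the 9 genes (17 alternatives each), 129 kept direction and side of 0.05. Cd36 kept its direction in all 17 (log2 fold change 1.03 to 1.32) and lost its call with limma-voom (1.14), the offset for effective length (1.21), limma on log2(TPM + 0.5) (1.03) and 7 of 8 fits with 1 library left out (1.10 to 1.32 over the 8). Slc27a1 passed with DESeq2 (0.80). Signs near 0 turned for Slc27a2 (−0.10 on the TPM scale; −0.013 to 0.102 with 1 library left out, below 0 without Nudt7 liver 4), Slc27a5 (0.0053 with DESeq2, 0.0053 with RLE and 0.0047 with upper quartile scaling; −0.0933 to 0.0594 with 1 library left out) and Fabp2 (−0.0035 with voom sample weights; −0.0625 without Nudt7 liver 3 to 0.329 without Nudt7 liver 1). The count of all genes called was 16, against 153 with DESeq2, 10 with limma-voom, 100 with sample weights, 27 with no filter, 10 with the effective length offset, 34 with the length trend removed, 8 on the TPM scale and 2 to 16 with 1 library left out. The count of transcripts called was 2, against 6 with no filter, 12 on the TPM scale and 0 to 4 with 1 library left out. The middle start of Cd36 kept 2.79 to 3.18 with 1 library left out and passed at a chaining distance of 100 bases (2.95, adjusted p = 0.0149). The share of the first start, with a difference of 0.14 points, ran from −7.82 to 4.90 points with 1 library left out and was −0.57 on estimated reads; its use within the gene was −0.10, with −0.362 to 0.110 when 1 library was left out. ENSMUST00000082367.12 was at −0.77, with −1.90 to 0.153 when 1 library was left out. No paired analysis was possible because the labels give no replicate numbers and no pairing; the numbers 1 to 4 used here only name the livers, in the order of the sample records. The values of Cd36 by start, of Fabp5 and of the rare transcripts are limited by reads, 28.3 to 66.5 per library for Fabp5, and 4 livers a group limit every interval.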
